A study of Mus musculus with 6 samples.

Results

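The serpins (serine protease inhibitors) are a superfamily of secreted and intracellular proteins, sorted into clades by sequence. Here they were taken as every gene whose only symbol in the platform annotation starts with Serpin, and where a gene had several probe sets the one of highest average was kept. This gave 54 genes of 22180 tested, read by 55 probe sets, 20 genes in clade A, 25 in clade B, 2 each in clades F and I, and 1 each in clades C, D, E, G and H. Only Serpinb9b had a second probe set, and a further 2 probe sets that carried a Serpin symbol together with another symbol were left out. Genes were picked by name only, and measured averages decided only which probe set of Serpinb9b was kept.

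Most serpins act as decoys: a protease cuts an exposed loop of the inhibitor and is trapped in a covalent complex as the loop folds into the body of the protein. Others have lost inhibition and carry hormones or assist folding. The liver secretes many of the clade A, C, D, F and G proteins into plasma, where they restrain neutrophil elastase, thrombin, plasmin and complement proteases, while most clade B proteins stay inside cells. In mice, the single human genes for alpha-1-antitrypsin and antichymotrypsin correspond to the Serpina1 and Serpina3 clusters, rows of close paralogs.

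The 6 arrays came from livers of 20-week-old male mice, 3 of the Balb/c and 3 of the Balb/cBy substrain. All mice lived in individual cages and received, from 8 weeks of age and for 12 weeks, a diet that supplied 58% of energy as fat. Diets were therefore not compared. A substrain difference that arises on this diet cannot be told apart from one present without it. Balb/cBy is known to carry a deleted Acads allele (short-chain acyl-CoA dehydrogenase), but the labels give neither alleles nor the supplier, and each array is called a biological replicate. The hepatocyte markers measured (9 genes, among them Alb, Apoa1 and Ttr) had means over all arrays between 11.76 and 14.18 on the log2 scale.

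Array medians lay between 7.66 and 7.74, and arrays correlated at 0.972 to 0.988 over all probe sets. Gene levels had a median of 8.03, with a 10th percentile of 6.23 and a 90th of 9.83. A value is the log2 intensity of a probe set after RMA, the authors' normalization. Probe sets differ in how well they bind, so differences are taken only within a gene, and where a level is placed among those of all genes this describes signal and not transcript amount; a low value does not show that a gene is silent. The SE of a difference had a median of 0.11 over the Serpin genes and 0.12 over all genes. Balb/c replicate 3 stood apart in acute phase genes, with a list mean of -0.69 relative to each gene's own average against 0.14 and 0.27 on the other Balb/c arrays, and macrophage markers were at -0.45 on it. Over the Serpin genes the mean on this scale was highest on Balb/cBy replicate 1, at 0.081. In the alternative fit with array weights that array had the lowest weight, 0.47, and Balb/c replicate 3 had 0.63.

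The Serpina1a, Serpina1b, Serpina1c, Serpina1d and Serpina1e genes are close paralogs and share much of their promoters. These were chosen for display after all genes of this cluster were seen to have positive differences between Balb/cBy and Balb/c. The sequences come from the reference build and not from these mice, and their part in the differences was not tested. RefSeq promoter sequences (build GRCm38.p6) were found for 47 of the 54 genes. The stretches below, from the minus strand of chromosome 12, lie at chr12:103863625-103863740 (Serpina1a), chr12:103738200-103738315 (Serpina1b), chr12:103904962-103905077 (Serpina1c), chr12:103773634-103773749 (Serpina1d) and chr12:103956960-103957075 (Serpina1e), each 116 bases long. Capitals mark GTTAAT, the half-site of HNF1, a factor that maintains hepatocyte genes.
Serpina1a: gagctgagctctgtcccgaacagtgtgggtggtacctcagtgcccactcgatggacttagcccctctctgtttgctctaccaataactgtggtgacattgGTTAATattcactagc
Serpina1b: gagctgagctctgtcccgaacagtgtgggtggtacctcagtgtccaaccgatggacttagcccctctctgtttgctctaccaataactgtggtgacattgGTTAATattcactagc
Serpina1c: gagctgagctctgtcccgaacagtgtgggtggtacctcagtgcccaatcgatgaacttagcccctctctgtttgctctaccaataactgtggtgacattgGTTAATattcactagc
Serpina1d: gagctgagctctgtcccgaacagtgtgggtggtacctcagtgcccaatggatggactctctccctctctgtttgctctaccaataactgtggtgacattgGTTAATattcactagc
Serpina1e: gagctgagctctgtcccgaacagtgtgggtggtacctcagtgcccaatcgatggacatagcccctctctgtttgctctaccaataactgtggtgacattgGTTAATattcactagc

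Pairs of these stretches were identical at 94.0% to 98.3% of aligned positions. Their last 55 bases, up to the end of each stretch, were the same in all 5, and among all promoters in the table this run occurred in these 5 genes only. GTTAAT began 16 to 27 bases before the annotated start in Serpina1a to Serpina1d and 78 bases before it in Serpina1e, whose annotated start lies further downstream. Within 250 bases before the start, on either strand, GTTAAT occurred in 9 of the 47 Serpin genes with a promoter (19.1%) and in 6.43% of all 32851 promoters. The Serpina1f promoter did not hold it. The STAT motif TTCNNNGAA occurred in 6 of the 47 (12.8%, against 7.02% of all promoters), among them Serpina1f, Serpina3i and Serpina11 but not Serpina3n. The C/EBP motif TTGCNNAA occurred in 11 of them (23.4%, against 9.56%), among them Serpina1b, Serpina1d and Serpina1e but not Serpina1a or Serpina1c. The motifs were searched separately, so matches could overlap. Matches among Serpina1a to Serpina1e are not independent, since their promoters are copies of one another.

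No Serpin gene passed an adjusted p of 0.05 in limma, 0 of 54, where 0 of all 22180 genes passed (0%). The adjusted p was 0.999 for each of the 54 genes. Before adjustment, 4 Serpin genes (Serpina1d, Serpina10, Serpina1a and Serpina1e) had a limma p under 0.05, all 4 with the higher mean in Balb/cBy and 0 with the lower, against 3.76% of all genes, made of 2.59% higher and 1.16% lower. The fit without moderated variances also called 0 Serpin genes, and so did array weights. Of the 54 genes, 34 had a positive difference (63.0%, against 49.1% of all genes), and the median difference was 0.06 on the log2 scale, or 0.03 without Balb/cBy replicate 1, against -0.0028 over all genes. The groups did not overlap for 8 genes (14.8%), 6 with Balb/cBy higher and 2 lower, while the background was 7.83%, made of 4.32% higher and 3.51% lower. A repeated quantile normalization left 4 genes without overlap (7.41%, against 8.44% of all genes then), of which 2 were among those 8, and recentring the arrays left 11 (20.4%, against 7.54%), of which 6 were, so the count of 8 depends on the scaling.

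Differences were small throughout. Only Serpina1a and Serpina10 differed by more than 0.5, and 25 genes differed by less than 0.1. The 95% interval of the difference included 0 for 50 genes. It lay within 1 log2 unit of 0 for 51 genes, the exceptions being Serpina1a, Serpina7 and Serpina4-ps1. The pooled SD of arrays within a substrain exceeded the size of the difference between substrains for 33 genes.

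**Figure D1:**
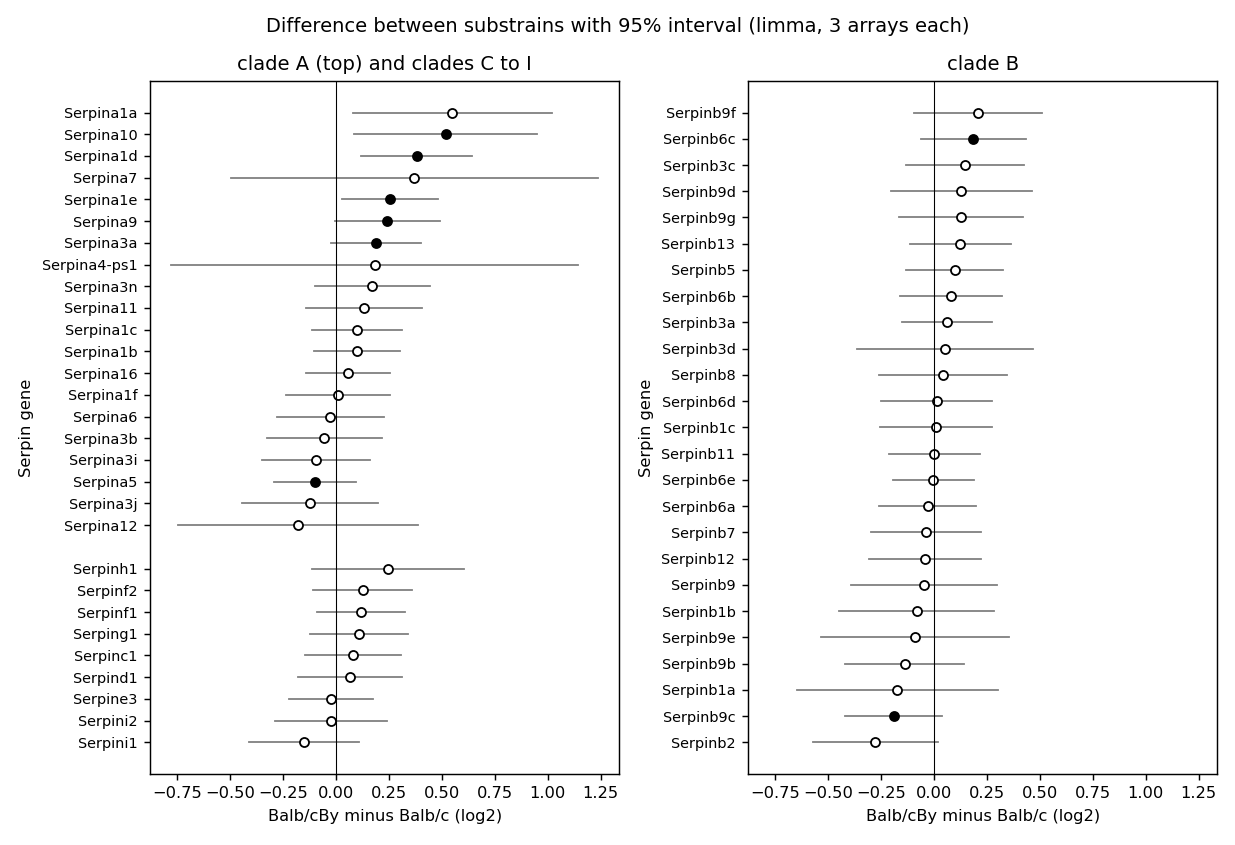
Difference between substrains (Balb/cBy minus Balb/c, log2) for the 54 Serpin genes, with 95% intervals from limma over 3 arrays each; filled points mark the 8 genes whose groups did not overlap. Serpina1a (0.55) and Serpina10 (0.52) lie farthest to the right, Serpinb2 (-0.28) farthest to the left, and most intervals cross 0.

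Clade A had a larger share of positive differences than clade B, though the clades differed in level and were not tested against each other. Clade A had 14 of 20 genes with a positive difference (70%) and a median of 0.12. It held 6 of the 8 genes without overlap. Its 14 positive genes included all 6 Serpina1 genes, which are not independent readings. Outside the Serpina1 and Serpina3 clusters 6 of 9 were positive. Clade B had 14 of 25 and a median of 0.01, with 2 genes without overlap. Clade A had 11 genes with a level above the median of all genes, and clade B had 1 (Serpinb9). Bright probe sets in general leaned towards Balb/cBy. A positive difference was found in 56.9% of all genes above the median level and 62.9% of those above the 90th percentile. At or below the median level it was 41.2%, and clade B, nearly all of it there, stood at 56%. Of the 18 Serpin genes above the median level 15 had a positive difference (83.3%), with a median of 0.12, and of the 36 at or below it 19 did (52.8%), with a median of 0.01. Of the 8 genes without overlap, 6 were among the 36 at or below the median level, where 7.06% of all genes did not overlap, and 2 among the 18 above it, where 8.59% did not.

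The Serpina1 cluster corresponds to the human gene for alpha-1-antitrypsin, the main plasma inhibitor of neutrophil elastase. All 6 genes had positive differences, with a median of 0.18, or 0.10 without Serpina1d, which a filter on values above 6 removes. Because Serpina1a to Serpina1e are close paralogs, a probe made for one of these copies may bind others. The 6 values are therefore not 6 independent readings, and the share of each copy is uncertain.

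Serpina1a read 10.75, 10.68 and 11.09 in Balb/c and 11.06, 11.85 and 11.26 in Balb/cBy. Balb/cBy replicate 2 was the highest array and Balb/c replicate 3 lay just above Balb/cBy replicate 1, so the groups overlapped. Balb/c averaged 10.84 ± 0.22 and Balb/cBy 11.39 ± 0.41 (SD, n = 3 each), which is 1.46-fold or a difference of 0.55 (SE 0.20, 95% interval 0.08 to 1.02, limma unadjusted p = 0.0272, adjusted p = 0.999). Without Balb/cBy replicate 2 the difference was 0.32.

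Serpina1d read 5.24, 5.0 and 4.97 in Balb/c and 5.57, 5.32 and 5.46 in Balb/cBy, all of them below the 10th percentile of gene levels. The lowest Balb/cBy array lay above the highest Balb/c array by less than the spread within either group. Balb/c averaged 5.07 ± 0.15 and Balb/cBy 5.45 ± 0.13 (SD, n = 3 each), a difference of 0.38 (SE 0.11, limma unadjusted p = 0.00974, adjusted p = 0.999; exact permutation p = 0.1, the smallest that 3 against 3 allows, two-sided). It was the smallest unadjusted p among the Serpin genes.

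Serpina1e read 11.22, 11.17 and 11.42 in Balb/c and 11.54, 11.48 and 11.54 in Balb/cBy. The 3 Balb/cBy arrays lay close together and above all Balb/c arrays, of which replicate 3 came nearest. Balb/c averaged 11.27 ± 0.13 and Balb/cBy 11.52 ± 0.036 (SD, n = 3 each), a difference of 0.26 (SE 0.10, limma unadjusted p = 0.0318, adjusted p = 0.999). After a repeated quantile normalization it was 0.18 and the groups of Serpina1e and Serpina1d overlapped, while those of Serpina1a no longer did.

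Serpina1c, with the brightest probe set of the family, read 13.76, 13.70 and 13.65 in Balb/c and 13.71, 13.90 and 13.81 in Balb/cBy, a difference of 0.10 (SE 0.09). Serpina1b read 8.85, 8.79 and 8.72 in Balb/c and 8.85, 8.94 and 8.88 in Balb/cBy, also a difference of 0.10 (SE 0.09). In both, Balb/cBy replicate 2 was highest and Balb/c replicate 3 lowest, and the groups overlapped. Serpina1f read 7.63, 7.78 and 7.64 in Balb/c and 7.82, 7.53 and 7.72 in Balb/cBy, a difference of 0.01 (SE 0.11), with no order between the substrains.

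The Serpina3 cluster, related to antichymotrypsin, was measured for 5 of the 11 genes listed, and the others were not analysed here. Of these, 2 had positive and 3 negative differences, with a median of -0.05, which was 0.06 without Balb/cBy replicate 2. Serpina3n, an acute phase inhibitor whose mRNA is abundant in inflamed liver, was the 1 member above the median level. It read 13.27, 13.36 and 13.23 in Balb/c and 13.69, 13.37 and 13.32 in Balb/cBy. Balb/cBy replicate 1 stood above the other 5 arrays, which lay within a narrow band and overlapped. The difference was 0.17 (SE 0.12, 95% interval -0.10 to 0.44), and 0.06 without Balb/cBy replicate 1.

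Acute phase genes had their highest list mean on that array, though not every gene did so. Relative to each gene's own average, the list mean was 0.35 on Balb/cBy replicate 1 and -0.05 and -0.02 on replicates 2 and 3, while in Balb/c it was 0.27 on replicate 2, where Serpina3n read 13.36. Lbp, the lipopolysaccharide-binding protein, read 12.22 on Balb/cBy replicate 1 and 11.06 and 11.26 on the other Balb/cBy arrays. Hamp, the iron hormone hepcidin, named after its values were seen, read 12.45 on it, its lowest value of the 6. The list held 18 measured genes, 15 with a positive and 3 with a negative difference, 0 past the threshold. Their median was 0.20, which was 0.06 without Balb/c replicate 3. Saa4, a constitutive serum amyloid, differed by 0.27 (SE 0.10). Saa3 had the difference of largest size in the list and lay the other way, at -1.41 (SE 1.06). It read 13.88, 13.73 and 9.37 in Balb/c and 10.57, 10.60 and 11.60 in Balb/cBy. The part of this variation in the values of Serpina3n was not tested.

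Serpina3a read 7.16, 7.01 and 7.08 in Balb/c and 7.22, 7.23 and 7.35 in Balb/cBy, with every Balb/cBy array above every Balb/c array by a small margin and a difference of 0.19 (SE 0.09, limma unadjusted p = 0.0747, adjusted p = 0.999). Serpina3b differed by -0.05 (SE 0.12), Serpina3i by -0.09 (SE 0.11) and Serpina3j by -0.12 (SE 0.14). Serpina3b read 6.96, 7.01 and 6.94 in Balb/c and 7.07, 6.68 and 7.0 in Balb/cBy, and Balb/cBy replicate 2 was the low array. Serpina3i read 6.23, 6.48 and 6.35 in Balb/c and 6.40, 6.14 and 6.23 in Balb/cBy. Serpina3j read 6.68, 6.66 and 6.82 in Balb/c and 6.90, 6.52 and 6.39 in Balb/cBy, spread more in Balb/cBy than in Balb/c. The groups of these 3 genes overlapped.

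**Figure D2:**
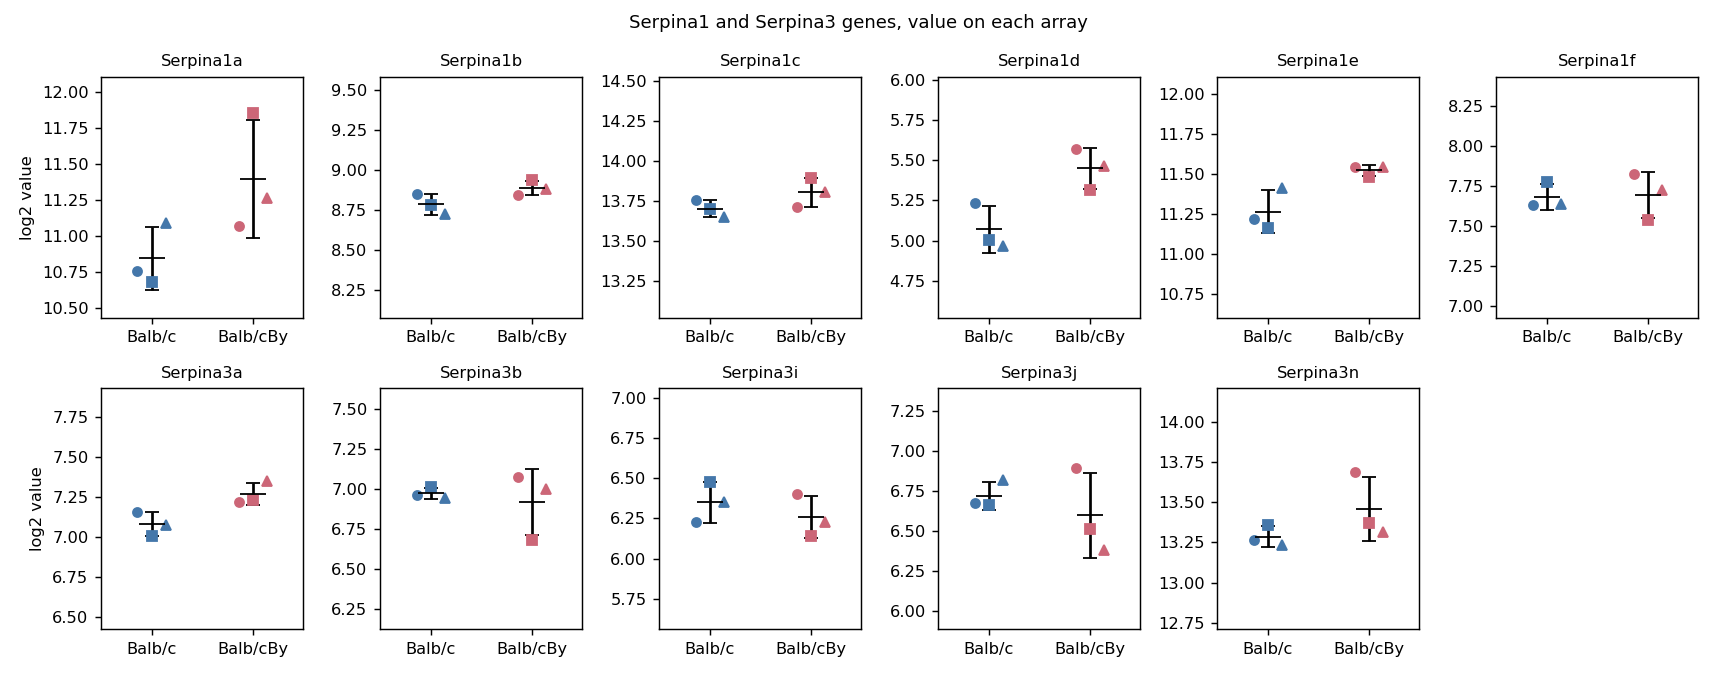
Log2 value on each array for the 6 Serpina1 and 5 Serpina3 genes, with the mean and SD of each substrain as bars; circles, squares and triangles are replicates 1, 2 and 3, and each panel has its own axis. Serpina1d, Serpina1e and Serpina3a show no overlap, and in Serpina3n 1 Balb/cBy array (13.69) stands above the rest.

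Among inhibitors of coagulation and fibrinolysis the largest difference was that of Serpina10, which encodes the protein Z-dependent inhibitor of activated factor X. Serpina10 read 11.29, 11.54 and 11.19 in Balb/c and 12.29, 11.63 and 11.66 in Balb/cBy. Every Balb/cBy array lay above every Balb/c array, but replicates 2 and 3 did so by a small margin and replicate 1 stood far above. Balb/c averaged 11.34 ± 0.18 and Balb/cBy 11.86 ± 0.38 (SD, n = 3 each), which is 1.43-fold or a difference of 0.52 (SE 0.19, 95% interval 0.09 to 0.95, limma unadjusted p = 0.024, adjusted p = 0.999; exact permutation p = 0.1, two-sided). Without Balb/cBy replicate 1, the array with the highest list mean of acute phase genes, the difference was 0.30. The part of acute phase variation in the values of Serpina10 was not tested.

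Serpinc1, antithrombin, read 12.65, 12.42 and 12.55 in Balb/c and 12.55, 12.63 and 12.67 in Balb/cBy, a difference of 0.08 (SE 0.10, 95% interval -0.15 to 0.31). Serpind1, heparin cofactor II, read 13.02, 12.87 and 13.19 in Balb/c and 13.07, 13.12 and 13.08 in Balb/cBy, a difference of 0.07 (SE 0.11, 95% interval -0.18 to 0.31). The 3 Balb/cBy arrays of Serpind1 fell inside the range of the Balb/c arrays. Serpinf2, the plasmin inhibitor alpha-2-antiplasmin, read 12.82, 13.10 and 12.98 in Balb/c and 13.11, 13.04 and 13.13 in Balb/cBy, a difference of 0.13 (SE 0.10), with Balb/c replicate 1 the low array. Serpina5, the protein C inhibitor, read 7.27, 7.33 and 7.31 in Balb/c and 7.24, 7.22 and 7.16 in Balb/cBy. Its groups did not overlap, with Balb/cBy lower, at a difference of -0.10 (SE 0.08) and a pooled SD within substrains of 0.035. Serpina5 was named after these values were seen.

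Of 11 measured genes for the proteases of coagulation and fibrinolysis, 6 had a positive difference, 0 passed and the median was 0.03. F7, coagulation factor VII, had the smallest p, with a difference of 0.27 (SE 0.12), and Hgfac, a protease that activates hepatocyte growth factor, differed by 0.20 (SE 0.11). Among 8 cofactors and receptors that bind or clear serpins, 5 had a positive difference, with a median of 0.04. Plaur, the urokinase receptor, differed by 0.09 (SE 0.10) and Vtn, the vitronectin that stabilizes a plasminogen activator inhibitor, by 0.06 (SE 0.09).

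Serping1, the C1 inhibitor of complement and contact activation, read 13.19, 13.36 and 13.12 in Balb/c and 13.40, 13.34 and 13.26 in Balb/cBy. The arrays of the substrains were interleaved, with a difference of 0.11 (SE 0.10). Among 7 measured complement proteases, 5 had a positive difference, 0 passed and the median was 0.10, or 0.05 after a repeated quantile normalization. C2, the protease subunit of the C3 convertase, differed by 0.24 (SE 0.10) and Cfi, complement factor I, by 0.28 (SE 0.12).

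Serpinf1, pigment epithelium-derived factor, a secreted serpin that blocks vessel growth, read 10.83, 10.65 and 10.74 in Balb/c and 10.81, 10.89 and 10.87 in Balb/cBy, a difference of 0.12 (SE 0.09), and its groups overlapped through Balb/c replicate 1. Agt, angiotensinogen, is a clade A serpin whose symbol does not start with Serpin and was not counted as a member. It read 10.87, 10.74 and 10.45 in Balb/c and 10.65, 10.88 and 10.94 in Balb/cBy, a difference of 0.13 (SE 0.14), or 0.01 without Balb/c replicate 3.

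The hormone carriers differed in how much they varied between mice. Serpina6, the corticosteroid-binding globulin, read 13.38, 13.16 and 13.21 in Balb/c and 13.10, 13.37 and 13.19 in Balb/cBy, a difference of -0.03 (SE 0.11, 95% interval -0.28 to 0.23). Serpina7, the thyroxine-binding globulin, read 9.17, 9.44 and 10.47 in Balb/c and 10.31, 10.51 and 9.38 in Balb/cBy. Each substrain held both low arrays near 9 and high ones above 10, so the groups overlapped almost fully. Balb/c averaged 9.69 ± 0.69 and Balb/cBy 10.06 ± 0.6 (SD, n = 3 each), a difference of 0.37 (SE 0.38, 95% interval -0.50 to 1.24). Leaving out Balb/c replicate 1 gave 0.11, and leaving out Balb/c replicate 3 gave 0.76. Its spread within a substrain was at percentile 99.4 of all genes. Of 10 genes of the glucocorticoid and thyroid hormone axis 5 had a positive difference, with a median of 0.04, and Dio1, the deiodinase that activates thyroxine, differed by 0.59 (SE 0.17) without overlap, and the stress-responsive Fkbp5 by 0.35 (SE 0.20), both with adjusted p = 0.999 in limma.

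Serpina4-ps1, a transcribed pseudogene related to kallistatin, varied most of all members and is described for that reason, as is Serpina12, vaspin, known from visceral fat. Serpina4-ps1 read 10.62, 10.08 and 11.05 in Balb/c and 10.38, 11.78 and 10.13 in Balb/cBy. The high arrays were Balb/cBy replicate 2 and Balb/c replicate 3, 1 in each substrain. The difference was 0.18 (SE 0.42), and it was -0.33 without Balb/cBy replicate 2. Serpina12 read 9.15, 8.86 and 9.89 in Balb/c and 8.92, 9.10 and 9.35 in Balb/cBy, with Balb/c replicate 3 the high array, a difference of -0.18 (SE 0.25) and 0.12 without that array. Of the 54 genes, 8 had a pooled SD within substrains above the 90th percentile of all genes, and 5 ranged over more than 1 log2 unit across the 6 arrays.

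**Figure D3:**
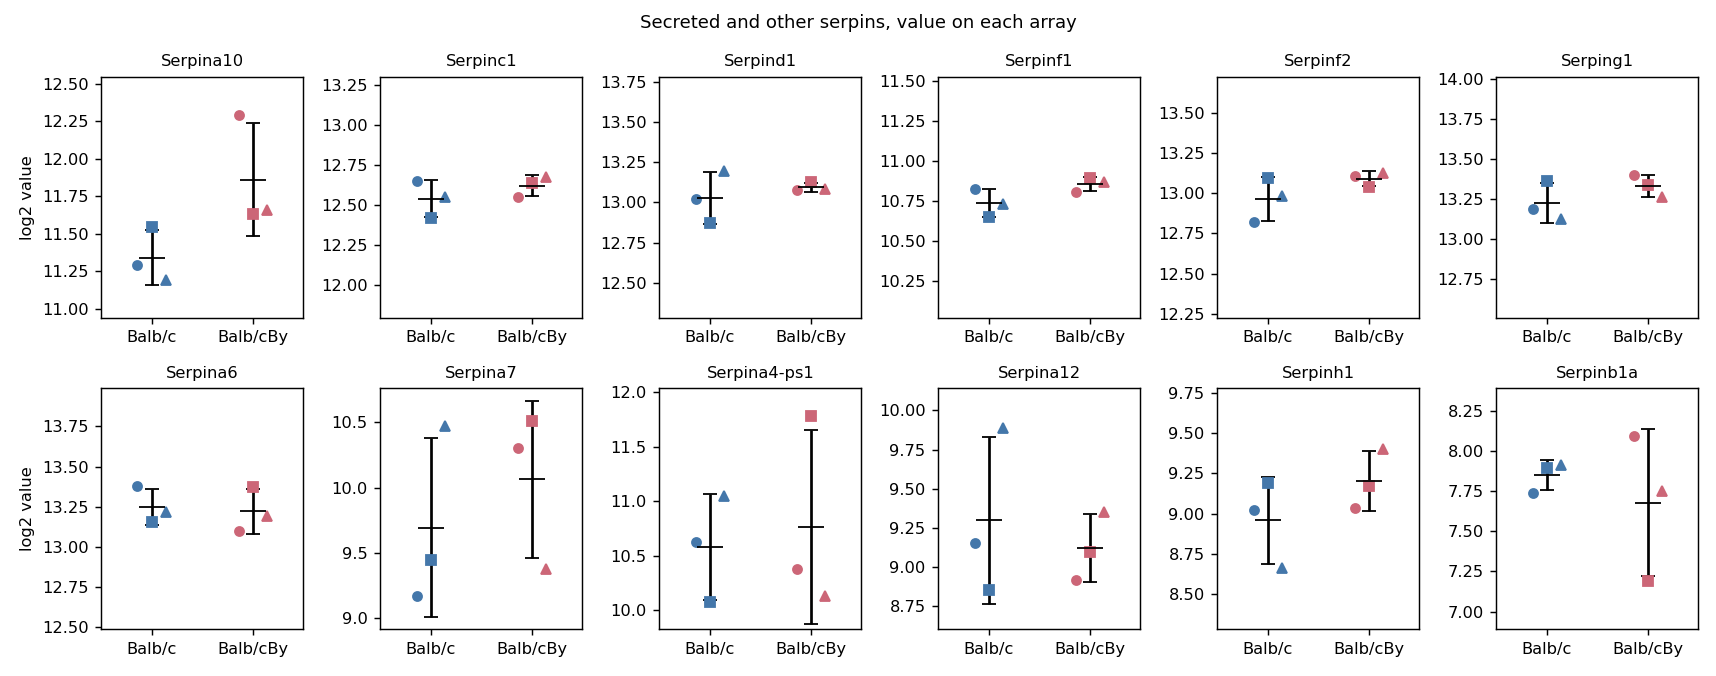
Log2 value on each array for 12 serpins with the mean and SD of each substrain as bars; circles, squares and triangles are replicates 1, 2 and 3, and each panel has its own axis. Serpina7 and Serpina4-ps1 spread over more than 1 log2 unit within Balb/cBy, while the 6 arrays of Serpinc1, Serpind1 and Serpina6 span 0.26, 0.33 and 0.28.

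**Figure D4:**
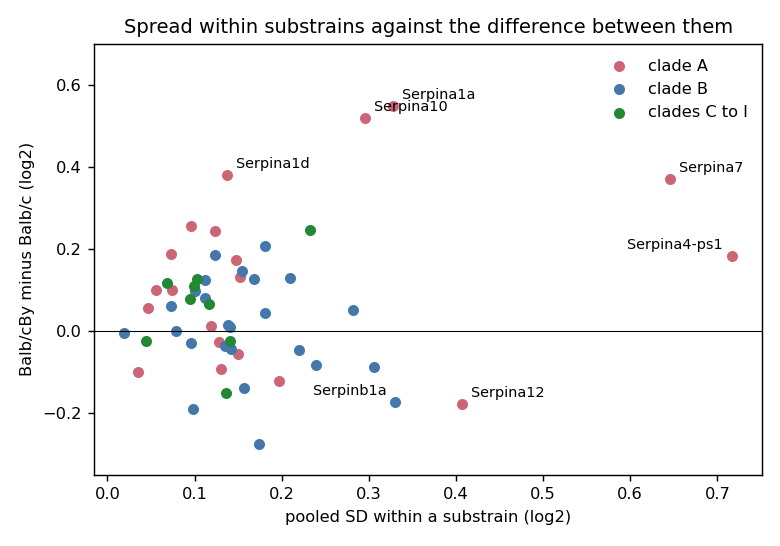
Difference between substrains (log2) against the pooled SD within substrains (log2) for the 54 Serpin genes, coloured by clade. Serpina4-ps1 (SD 0.72) and Serpina7 (SD 0.65) lie far to the right, and Serpina1d pairs a difference of 0.38 with an SD of 0.14.

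Serpinh1 encodes the collagen chaperone of the endoplasmic reticulum known as heat shock protein 47, a serpin with no known protease target. It read 9.02, 9.19 and 8.66 in Balb/c and 9.03, 9.17 and 9.40 in Balb/cBy. The highest array was Balb/cBy replicate 3 and the lowest Balb/c replicate 3, and the others were interleaved. The difference was 0.25 (SE 0.16, 95% interval -0.11 to 0.60), and 0.10 without Balb/c replicate 3. Collagen genes and their chaperones had a positive difference in 11 of 15, with a median of 0.03 and 0 past the threshold, P4ha1, a collagen prolyl hydroxylase, differing by 0.68 (SE 0.24) and Col6a1 by 0.27 (SE 0.12). Markers of stellate cells and fibroblasts had the same lowest and highest arrays. Relative to each gene's own average their list mean was -0.24 on Balb/c replicate 3 and 0.23 on Balb/cBy replicate 3. This was not particular to them, though not all lists had it: collagen genes and chaperones (-0.22 and 0.14), lysosomal cathepsins (-0.22 and 0.14) and neutrophil markers (-0.15 and 0.13) did too. Of the 10 stellate and fibroblast differences 9 were positive, with a median of 0.18. Lum, lumican, was at 0.53 (SE 0.12) and Dcn, decorin, at 0.48 (SE 0.14), while Col1a1 was at 0.01 (SE 0.12) and Des at 0.02 (SE 0.11). In RNA of whole liver, more cells of a type and more RNA per cell cannot be told apart. The part of stellate cells and fibroblasts in the Serpinh1 values was not tested.

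Heat shock genes had a positive difference in 8 of 10, with a median of 0.44 and 0 past the threshold. Leaving out Balb/cBy replicate 2 gave a median of 0.12, and dropping replicate 1 of that substrain gave 0.76. Hspb1, a small heat shock protein, differed by 0.97 (SE 0.17, adjusted p = 0.429 in limma) and the cochaperone Bag3 by 0.62 (SE 0.24). Their list mean was 0.61 on Balb/cBy replicate 2 and -0.30 on Balb/cBy replicate 1. On those arrays Serpinh1 read 9.17 and 9.03.

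Clade B serpins guard cells against proteases that leak from granules and lysosomes, and nearly all lay at low intensities. Their levels ran from 3.89 for Serpinb3c to 8.81 for Serpinb9, with a median of 6.65. The differences ran from -0.28 to 0.21. Serpinb9, the inhibitor of granzyme B, differed by -0.04 (SE 0.15).

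Serpinb2, an inhibitor of urokinase, read 6.77, 6.76 and 6.64 in Balb/c and 6.66, 6.20 and 6.48 in Balb/cBy. Balb/cBy replicates 2 and 3 were the lowest arrays, and replicate 1 fell inside the Balb/c range. The difference of -0.28 (SE 0.13, limma unadjusted p = 0.0636, adjusted p = 0.999) was -0.15 without Balb/cBy replicate 2. Serpinb9c read 5.78, 5.71 and 5.75 in Balb/c and 5.65, 5.62 and 5.41 in Balb/cBy, with all Balb/cBy arrays lower and a difference of -0.19 (SE 0.10). Its values lay below the 10th percentile of gene levels.

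Serpinb6c read 7.75, 7.87 and 7.89 in Balb/c and 7.92, 8.21 and 7.95 in Balb/cBy, all Balb/cBy arrays being higher by a small margin, with a difference of 0.19 (SE 0.11). Serpinb9f read 6.97, 7.04 and 7.31 in Balb/c and 7.27, 7.52 and 7.16 in Balb/cBy, a difference of 0.21 (SE 0.13) with overlap. Serpinb6c and Serpinb9f belong to families that expanded in rodents, and their paralogs Serpinb6a, Serpinb6b, Serpinb6d, Serpinb6e, Serpinb9, Serpinb9b, Serpinb9c, Serpinb9d, Serpinb9e and Serpinb9g had differences between -0.19 (Serpinb9c) and 0.13. Serpinb9b gave -0.14 (SE 0.12) from one probe set and 0.11 (SE 0.09) from the other, so its 2 probe sets disagreed in sign, and the disagreement was not tested.

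Serpinb1a, an inhibitor of neutrophil elastase and cathepsin G found in myeloid cells, read 7.74, 7.89 and 7.92 in Balb/c and 8.09, 7.19 and 7.75 in Balb/cBy. The Balb/c arrays lay close together, while the Balb/cBy arrays included both the highest and the lowest of the 6. The difference was -0.17 (SE 0.21), which became 0.07 when Balb/cBy replicate 2 was left out and -0.38 when replicate 1 was. The 8 granule proteases, targets of such inhibitors, had 4 positive differences and a median of -0.02, with Mcpt4 at -0.25 (SE 0.11) and Ctsg, cathepsin G, at 0.15 (SE 0.13). Their list mean was also highest on Balb/cBy replicate 1, at 0.17, and lowest on Balb/cBy replicate 2, at -0.13. This order was not particular to them, though not all lists had it. The 36 Serpin genes at or below the median level (0.10 and -0.09) and the cholangiocyte markers (0.06 and -0.13) had the same highest and lowest arrays. The 10 neutrophil markers had 7 positive differences and a median of 0.11. Unlike Serpinb1a, they had their highest list mean on Balb/cBy replicate 3, at 0.13, and their lowest on Balb/c replicate 3, at -0.15. On Balb/cBy replicates 1 and 2 it was 0.08 and -0.01. The part of these cells was not tested.

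Lysosomal cathepsins, which clade B serpins also meet, had positive differences in 9 of 9, with a median of 0.19 and 0 past the threshold. Ctsz differed by 0.26 (SE 0.11) and Ctsa by 0.25 (SE 0.10), both without overlap. Macrophage markers, of cells rich in lysosomes, had 6 of 10 positive differences and a median of 0.10, which became -0.17 when Balb/c replicate 3 was dropped and 0.34 when replicate 2 was. Both lists were lowest on Balb/c replicate 3, with list means of -0.22 for cathepsins and -0.45 for macrophages.

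Serpini1, neuroserpin, an inhibitor of tissue plasminogen activator known from neurons, read 6.60, 6.49 and 6.66 in Balb/c and 6.62, 6.29 and 6.38 in Balb/cBy, a difference of -0.15 (SE 0.11). Serpini2, known from pancreas, differed by -0.02 (SE 0.12), while 4 of the 5 exocrine pancreas markers had negative differences (median -0.11) and were highest on Balb/c replicate 3, at a list mean of 0.48. Serpine3 differed by -0.02 (SE 0.09). Serpina9, known from germinal centre B cells, read 7.95, 7.92 and 7.79 in Balb/c and 8.0, 8.30 and 8.10 in Balb/cBy, with all Balb/cBy arrays higher and a difference of 0.24 (SE 0.11, limma unadjusted p = 0.0546, adjusted p = 0.999). Lymphocyte markers lay the other way, with 8 of 9 negative differences and a median of -0.17, among them the B cell genes Ms4a1 at -0.27 (SE 0.09) and Cd79b at -0.27 (SE 0.10). The part of B cells in the Serpina9 values was not tested.

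**Figure D5:**
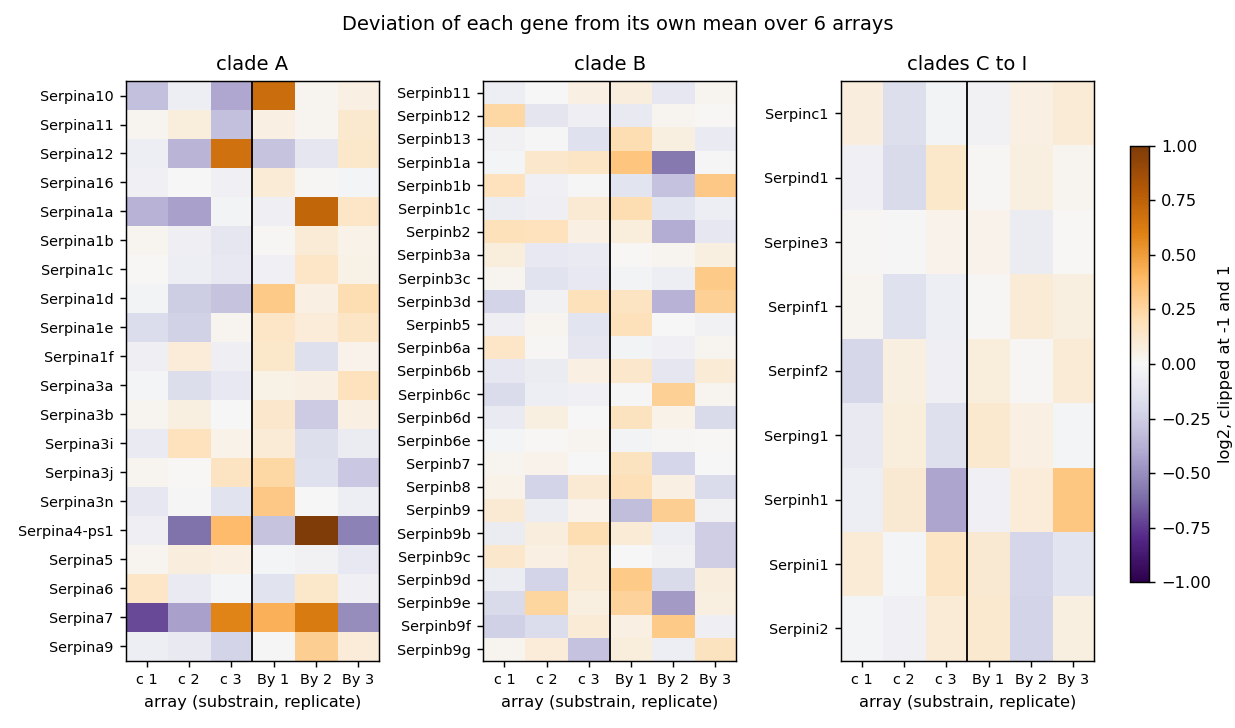
Deviation of each of the 54 Serpin genes from its own mean over the 6 arrays (log2, colours clipped at -1 and 1), by clade and array; c and By stand for Balb/c and Balb/cBy. Clade A rows carry the strongest colours, in single arrays such as Serpina10 on Balb/cBy replicate 1 and Serpina4-ps1 on Balb/cBy replicate 2, and few rows change colour at the line between the substrains.

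Protease inhibitors of other families had small differences too. Of 23 measured, such as the inter-alpha-trypsin inhibitor heavy chains, cystatins and tissue inhibitors of metalloproteases, 15 had a positive difference, 0 passed and the median was 0.03. Timp3 differed by 0.38 (SE 0.15) and Cst3, cystatin C, by 0.19 (SE 0.10). The upstream regulators known for Serpina1 and Serpina3n genes gave mixed values. Hepatocyte transcription factors had 6 of 8 positive differences and a median of 0.09, with Foxa3 at 0.45 (SE 0.19) and Cebpa at -0.36 (SE 0.11), the latter without overlap.

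Genes of IL-6, STAT3 and oncostatin signalling had 11 of 13 positive differences, a median of 0.22 and 0 past the threshold. Il1r1, the interleukin-1 receptor, differed by 1.19 (SE 0.16, adjusted p = 0.166 in limma) and Osmr, the oncostatin M receptor, by 0.76 (SE 0.11, adjusted p = 0.186). Genes of quality control in the endoplasmic reticulum, through which secreted serpins pass, had 12 of 14 positive differences, a median of 0.20 and 0 past the threshold, with the ubiquitin ligase Syvn1 at 0.83 (SE 0.11, adjusted p = 0.166) and its partner Sel1l at 0.46 (SE 0.09, adjusted p = 0.607).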

How the data were processed

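Each deposited value is the log2 intensity of one probe set after RMA, a method that corrects background, normalizes across arrays and summarizes probes; the authors' use of it is recorded in the submitters' processing notes. That values are log2 was inferred from their range. Version, array annotation, filters and genome build: not given in the sources used here. RNA was extracted with Trizol and labelled from 500 ng, per the labels' protocols.

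The table held 41345 probe sets on 6 arrays with no missing value. Gene symbols came from GEO's platform annotation: 23521 probe sets had 1 symbol, 1814 several and 16010 were unnamed here. All 54 Serpin symbols were current in RefSeq by gene identifier. Balb/cBy minus Balb/c was fitted on all 22180 genes without covariates by limma 3.58.1 (R 4.3.3; lmFit, then eBayes), and p-values were adjusted by Benjamini-Hochberg over the whole table, with 0.05 as the threshold. SE is the moderated standard error. Scripts were tested on simulated data. Gene lists are described by counts and medians only.

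The members and lists were chosen with earlier results of these data known. Array values were printed for the Serpina1 and Serpina3 clusters, a set of circulating and cell-associated serpins and the 12 members with the smallest p, and of each related gene list (not of each cell type marker list) the 2 genes with the smallest p were named. Serpina4-ps1, Serpina12, Serpina5, Serpinb9, Hamp, Saa3 and the cell type markers given with a difference were added after their values were seen. Nothing in the labels pairs mice of equal replicate number, and deviations of same-numbered arrays correlated at -0.32, -0.20 and -0.23. The number of arrays limits the precision. An exact permutation test of 3 against 3 cannot go below 0.1. Alternatives covered scaling, filters, probe sets, variance models, a replicate block and leaving out each array.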

Additional observations from a re-analysis of the deposited data

How the results depend on the processing

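No Serpin gene was called in any of the 16 alternatives, which included 6 that left out 1 array each. With the replicate number as a replicate block, 0 of all genes and 0 Serpin genes were called, with 34 positive differences. The numbers are not taken to pair mice, and the block changed no call. Over all genes, array weights called 12 genes and leaving out 1 array called 0 to 3, none of them a Serpin gene (2 when Balb/c replicate 3 was dropped, 3 when Balb/cBy replicate 1 was). Where a value moved, the cause was not tested, apart from filters, which remove genes.

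A repeated quantile normalization left 4 Serpin genes without overlap and gave medians of 0.082 for clade F, 0.14 for the Serpina1 cluster and 0.047 for complement proteases, and recentred arrays left 11 Serpin genes without overlap (20.4%, against 7.54% of all genes). Requiring 3 arrays above 6 gave 0.10 for the Serpina1 cluster, since Serpina1d was removed. Keeping genes above the median level left 18 Serpin genes, 15 positive and 2 without overlap, with a median of 0.12. Medians were then 0.17 for the 1 Serpina3 gene left, 0.060 for other protease inhibitors, 0.014 for neutrophil markers, -0.24 for lymphocyte markers and 0.16 for cholangiocyte markers (-0.07 with all 5 measured genes). The mean of all probe sets gave 0.15 for complement proteases. Array weights gave 0.051 for other protease inhibitors, and they turned Serpina4-ps1 to -0.054 and Serpina12 to 0.024.

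Leaving out 1 array gave 31 to 39 positive Serpin differences and 10 to 16 genes without overlap, while 12.9% to 26.9% of all genes then did not overlap. Medians ranged from -0.13 to 0.064 for the Serpina3 cluster, -0.040 to 0.046 for coagulation proteases, 0.059 to 0.17 for complement proteases, 0.027 to 0.065 for other protease inhibitors, 0.12 to 0.25 for IL-6 and STAT3 signalling, -0.21 to -0.11 for lymphocyte markers, 0.033 to 0.075 for all Serpin genes, 0.059 to 0.26 for acute phase genes, 0.12 to 0.76 for heat shock genes, 0.11 to 0.24 for lysosomal cathepsins, 0.070 to 0.22 for stellate and fibroblast markers and 0.055 to 0.18 for neutrophil markers. Medians whose sign turned ran from -0.015 to 0.065 for clade B, -0.17 to 0.34 for macrophage markers, -0.056 to 0.089 for collagen genes and chaperones, -0.042 to 0.16 for the glucocorticoid and thyroid hormone axis, -0.25 to 0.028 for exocrine pancreas markers, -0.00022 to 0.17 for hepatocyte transcription factors, -0.068 to 0.051 for granule proteases and -0.027 to 0.080 for cofactors and clearance receptors. The sign also turned for Serpin genes at or below the median level (-0.036 to 0.066), hepatocyte markers (-0.013 to 0.036) and endothelial markers (-0.032 to 0.14). So it did for the single genes of clade D (-0.013 to 0.15) and clade E (-0.047 to 0.0087). Differences that turned with 1 array left out ranged from -0.40 to 0.12 for Serpina12, -0.053 to 0.091 for Serpina1f, -0.13 to 0.064 for Serpina3b, -0.33 to 0.50 for Serpina4-ps1, -0.10 to 0.037 for Serpina6, -0.38 to 0.073 for Serpinb1a and -0.013 to 0.15 for Serpind1. The differences of Serpina1a, Serpina1d, Serpina1e and Serpina10 kept their sign in every setting that held the gene.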
